A study of Mus musculus with 94 samples.

Results

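The genes described here are the insulin-like growth factor (IGF) binding proteins Igfbp1 to Igfbp6, the receptor Igf1r, and the receptor substrates Irs1 and Irs2, 9 of the 24767 genes that have a row in any of 4 deposited count tables of mouse embryonic stem cells. They were chosen by symbol and gene family after the log2 changes of these same tables were known, so their changes are given as a description and the calls place each gene in a whole-table list without being independent evidence. All 9 genes had a row in the WAPL table of days 4 to 7 and in the PRO-seq table, and 8 had one in each of the other tables, where Igfbp1 has no row. The series, whose title names cohesin eviction and retention, has 94 samples, of which 18 were analysed here. Cohesin is the ring complex that extrudes chromatin loops, RAD21 is one of its core subunits, and WAPL is the factor that releases it from chromatin.

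All groups were CAST/Ei x 129/Sv/Jae hybrid ES cells labelled Tsix-stop, differentiated as embryoid bodies, which are aggregates that hold several emerging cell types. Before differentiation they grew on a feeder layer of mouse embryonic fibroblasts. Cells labelled RAD21-FKBP(degron) received dTAG-13 at 500 nM for 8 h, against the same volume of DMSO for 8 h. Poly(A) RNA was taken at day 10 and nascent RNA, by PRO-seq, at day 7, with 1 library of clone C4 and 1 of clone G9 per treatment and assay. Cells labelled WAPL-FKBP(degron) received dTAG-13 at 500 nM or DMSO for 3 days. The days 4 to 7 RNA set, harvested at day 7, holds 3 dTAG-13 and 3 DMSO libraries, of which replicates 1 and 2 are clone H7 and the third is clone H2. The days 7 to 10 set, harvested at day 10, holds 2 and 2 libraries of clone H7 alone. The degron is a protein tag that dTAG-13 directs to degradation, so the transcript of the tagged gene does not check the labels. Rad21 RNA was 250 CPM, counts scaled to library size, after dTAG-13 and 226 CPM in DMSO at day 10 (means of 2), and Wapl RNA was 636 CPM after dTAG-13 and 615 CPM in DMSO at days 4 to 7 (means of 3). Each set holds 1 or 2 clones, and the sources used here do not state separate cultures for replicates. The p-values below therefore cover no more than the spread between these libraries, which may be technical. The fit also shares its error across genes. In the RAD21 sets, with 1 residual degree of freedom, its standard errors and p-values do not measure the gap between a gene's clones.

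IGFBPs are secreted proteins that bind IGF1 and IGF2 outside the cell, prolong their lifetime, and either withhold them from the receptor or deliver them to it. IGF1R is a receptor tyrosine kinase, and IRS1 and IRS2 are the docking proteins that it and the insulin receptor phosphorylate, which recruit PI3 kinase and so activate AKT. Igfbp1 and Igfbp3 are neighbours on mouse chromosome 11, and Igfbp2 and Igfbp5 are neighbours on chromosome 1. Igfbp4 (chromosome 11), Igfbp6 (chromosome 15), Igf1r (chromosome 7), Irs1 (chromosome 1) and Irs2 (chromosome 8) lie elsewhere.

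Library totals lay between 8413212 and 35388461 counts in the WAPL days 4 to 7 set and between 12076585 and 26956675 in the later one. The RAD21 libraries held between 13802076 and 33808921 counts for RNA, and between 14269544.5 and 34335988.5 for nascent RNA. A count of 3, the limit used for a gene at 0, equals at most 0.374 CPM in any library and covers counting error only. All 6 pluripotency markers had a row in each table, and summed to 651 to 955 CPM after RAD21 loss and 848 to 1203 CPM in DMSO at day 10, where 6 of 6 fell. Smooth muscle markers summed to 1159 to 1278 CPM after RAD21 loss and 861 to 875 CPM in DMSO there, and 4 of 4 rose. Neural, endoderm, endothelial, fibroblast and trophoblast markers were detected as well, although Prl3d1 was at 0 in all 6 libraries of the WAPL days 4 to 7 set. In these bulk samples fewer cells of a type and less RNA per cell cannot be told apart.

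When RAD21 degradation had run for 8 h, the day 10 RNA of Igfbp3, Igfbp5, both receptor substrate genes and, by less, Igfbp4 was lower in each clone. Igfbp2 and Igfbp6 did not pass the threshold. Of the 8 genes with a row, 5 fell and 1 rose at a Benjamini-Hochberg adjusted p under 0.05 in edgeR's quasi-likelihood test, in a table where 8.89% of 14470 tested genes fell and 9.83% rose. Since the log2 changes of this table were known when the genes were chosen, nothing is read from that count. CPM below are counts scaled by the library total and the TMM factor, and log2 changes are dTAG-13 over DMSO with the standard error (SE) of the fit.

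Igfbp3 encodes the main IGF carrier in adult blood. It was at 97.9 CPM in C4 and 77.8 CPM in G9 after RAD21 loss, against 322 CPM in C4 and 338 CPM in G9 with DMSO. Both treated libraries lay far below both DMSO libraries, and the means were 87.9 ± 14.3 CPM after dTAG-13 and 330 ± 11.3 CPM in DMSO (SD, n = 2 each), so that 26.6% of the DMSO level was left after 8 h. The log2 change was -1.91 (SE 0.07), with pair values of -1.72 in C4 and -2.12 in G9.

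Igfbp5, the most conserved binding protein between mammals, which is held in extracellular matrix, moved by almost as much. It was at 23.02 CPM in C4 and 14.7 CPM in G9 after RAD21 loss, against 66.1 CPM in C4 and 71.8 CPM in G9 with DMSO. The groups did not overlap, the means were 18.8 ± 5.91 CPM after dTAG-13 and 69.0 ± 4.01 CPM in DMSO (SD, n = 2 each), and the log2 change was -1.83 (SE 0.07). The fall was larger in G9 (-2.29) than in C4 (-1.52), a gap between clones wider than the SE of the fit.

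Its neighbour Igfbp2 encodes a binding protein abundant in the embryo. It was at 417 CPM in C4 and 486 CPM in G9 after RAD21 loss, against 457 CPM in C4 and 451 CPM in G9 with DMSO, with a log2 change of -0.01 (SE 0.08). The treated libraries lay on either side of the DMSO libraries. Igfbp4, whose protein is cleaved by the protease PAPP-A, was at 161 CPM in C4 and 176 CPM in G9 after RAD21 loss, against 191 CPM in C4 and 215 CPM in G9 with DMSO, a log2 change of -0.27 (SE 0.06). The groups did not overlap, but the call was lost in DESeq2 (adjusted p = 0.115). Igfbp6, which prefers IGF2 over IGF1, was at 2.65 CPM in C4 and 1.94 CPM in G9 after RAD21 loss, against 1.64 CPM in C4 and 2.14 CPM in G9 with DMSO. The groups overlapped, and its log2 change of 0.31 (SE 0.26) was not called.

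The receptor gene Igf1r was at 170 CPM in C4 and 159 CPM in G9 after RAD21 loss, against 151 CPM in C4 and 133 CPM in G9 with DMSO. Its log2 change of 0.22 (SE 0.06) was the sole called rise among the 8 genes, with no overlap between groups, and it was not called by DESeq2 (adjusted p = 0.386).

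Irs1 was at 9.16 CPM in C4 and 9.94 CPM in G9 after RAD21 loss, against 28.5 CPM in C4 and 28.1 CPM in G9 with DMSO. The clones were nearly alike at each treatment, and the means were 9.55 ± 0.553 CPM after dTAG-13 and 28.3 ± 0.274 CPM in DMSO (SD, n = 2 each). The fitted log2 change was -1.58 (SE 0.10), a 2.99-fold lower level. Irs2 was at 89.3 CPM in C4 and 72.7 CPM in G9 after RAD21 loss, against 148 CPM in C4 and 121 CPM in G9 with DMSO. Clone C4 was higher than G9 at both treatments, and both pairs gave a log2 ratio of -0.73 (SE of the fitted change 0.06).

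These 4 falls, of Igfbp3, Igfbp5, Irs1 and Irs2, were also called by DESeq2 and by limma-voom. With 1 residual degree of freedom, all 6 calls were lost without the clone term, and Igfbp3, Igfbp5 and Irs1 stayed called when any 1 library was left out, while Irs2 stayed called in 1 of those 4 fits and Igfbp4 and Igf1r in 0. The summed fibroblast and feeder markers were 257 to 260 CPM after RAD21 loss and 254 to 255 CPM in DMSO, with 0 of the 7 tested rising and 3 falling. Endothelial markers summed to 56.1 to 57.3 CPM after RAD21 loss and 76.8 to 86.4 CPM in DMSO, where Kdr alone of the 4 fell. The part of these markers and of the pluripotency and smooth muscle markers in the changes was not tested.

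**Figure D1:**
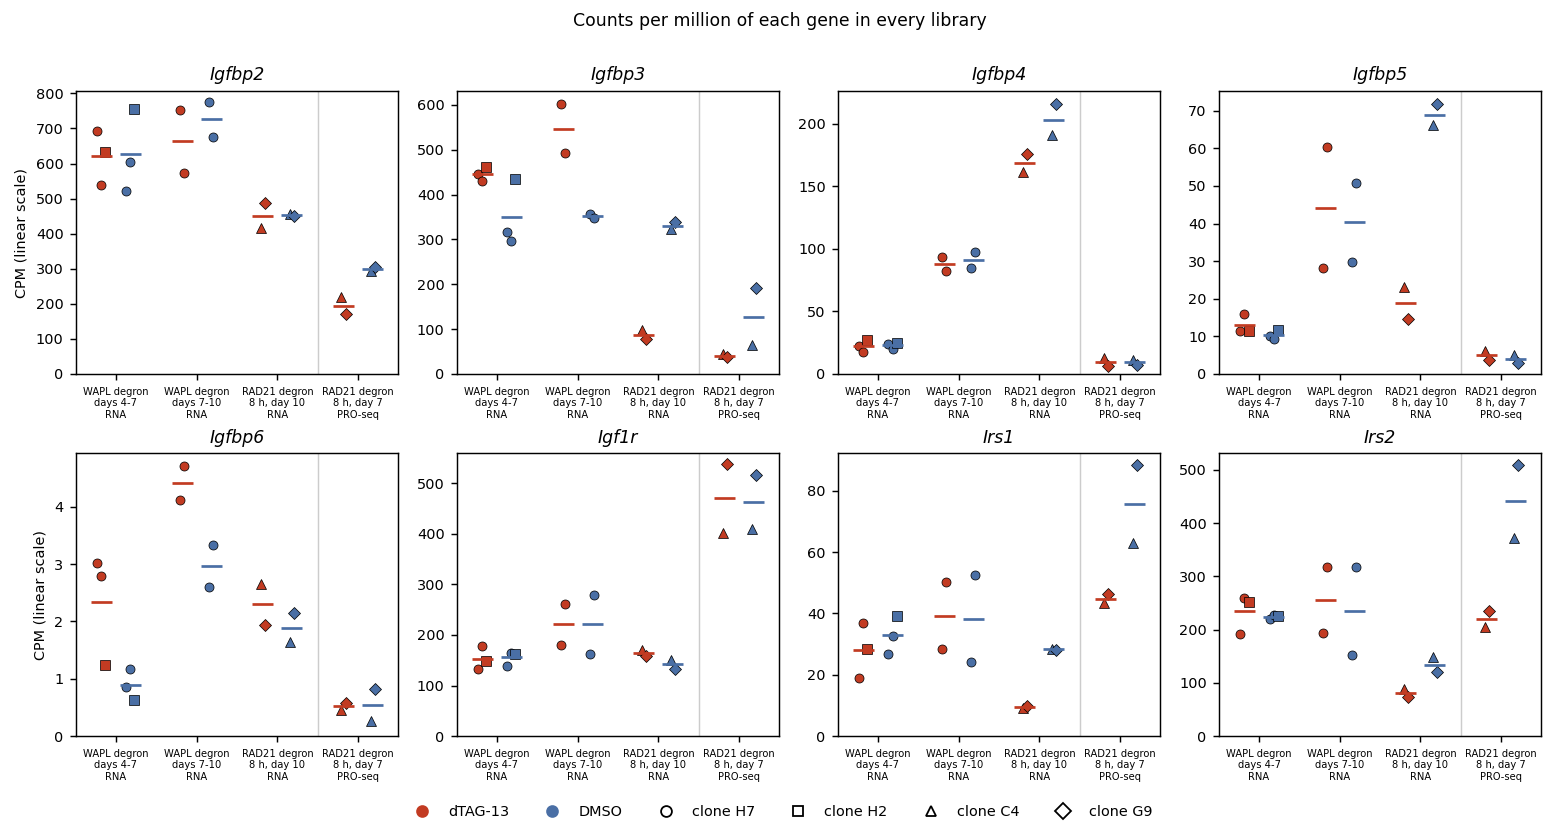
Levels of the binding protein, receptor and substrate genes in every library, in CPM on a linear axis. The dTAG-13 libraries are left of the DMSO libraries in each of the 4 data sets, with 1 point per library. In the RAD21 day 10 RNA set the treated libraries of Igfbp3 (77.8 and 97.9 CPM), Igfbp5 (14.7 and 23.02 CPM) and Irs1 (9.16 and 9.94 CPM) sit apart below their DMSO libraries.

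**Figure D2:**
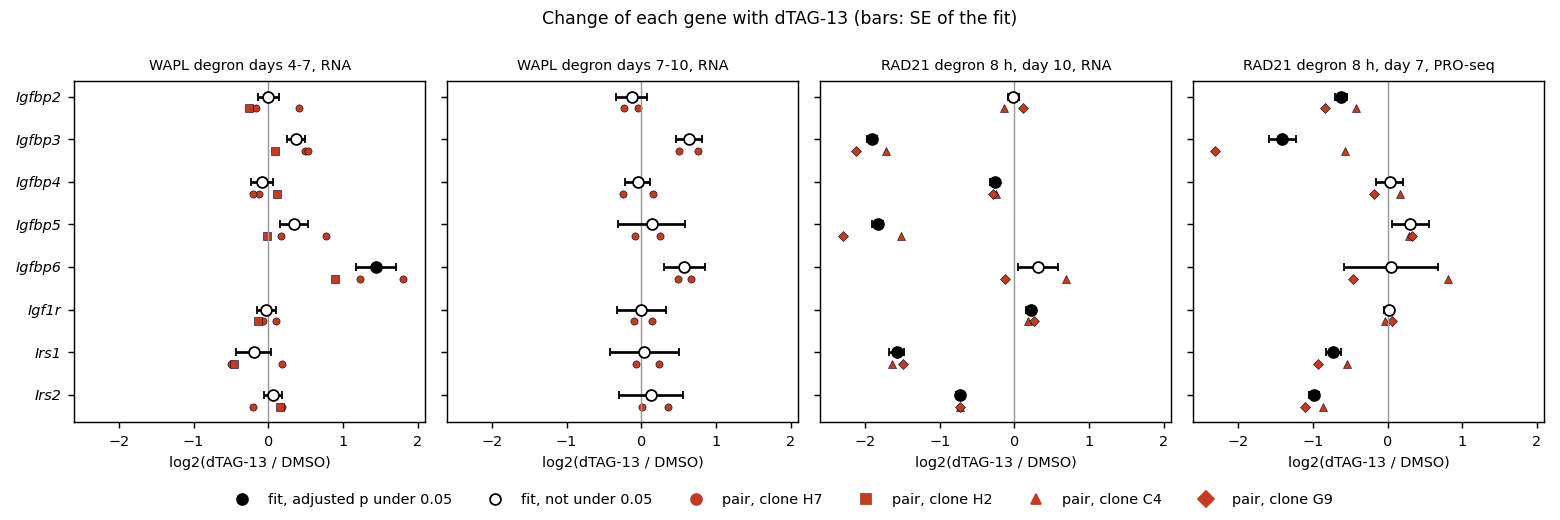
Log2 changes of each gene (dTAG-13 over DMSO) with bars for the SE of the edgeR fit, for the 4 data sets. Igfbp3 is at -1.91 in the RAD21 RNA set and at -1.41 in the PRO-seq set, and at 0.37 and 0.64 in the WAPL sets.

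The start regions of the 4 genes with the clearest RNA falls are shown because these genes moved together in both clones. Each is 300 bases from RefSeq (GRCm38.p6), with 250 bases before the annotated start and 50 from it, 5′ to 3′ on the minus strand, and capitals mark matches to the motifs listed below. All 9 genes had a window and Igfbp2 had 2 of them, which makes 10.
Igfbp3, chr11:7213874-7214173: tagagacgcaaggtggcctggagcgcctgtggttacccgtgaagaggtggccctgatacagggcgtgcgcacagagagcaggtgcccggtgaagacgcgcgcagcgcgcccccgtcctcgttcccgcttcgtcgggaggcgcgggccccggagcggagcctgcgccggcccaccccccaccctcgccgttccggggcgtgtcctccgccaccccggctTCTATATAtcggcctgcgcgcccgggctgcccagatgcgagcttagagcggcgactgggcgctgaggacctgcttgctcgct
Igfbp5, chr1:72874816-72875115: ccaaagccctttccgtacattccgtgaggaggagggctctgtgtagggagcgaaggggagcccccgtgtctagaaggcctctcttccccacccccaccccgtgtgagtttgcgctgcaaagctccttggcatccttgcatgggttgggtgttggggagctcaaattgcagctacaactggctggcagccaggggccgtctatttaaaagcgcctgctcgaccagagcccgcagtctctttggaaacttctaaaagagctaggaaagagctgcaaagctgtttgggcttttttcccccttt
Irs1, chr1:82291390-82291689: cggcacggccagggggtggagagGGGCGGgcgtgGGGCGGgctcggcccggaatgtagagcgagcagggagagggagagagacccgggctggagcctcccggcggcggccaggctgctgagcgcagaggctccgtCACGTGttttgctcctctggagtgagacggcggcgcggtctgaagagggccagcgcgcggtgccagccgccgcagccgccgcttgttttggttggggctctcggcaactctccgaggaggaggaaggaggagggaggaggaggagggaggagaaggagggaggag
Irs2, chr8:11008880-11009179: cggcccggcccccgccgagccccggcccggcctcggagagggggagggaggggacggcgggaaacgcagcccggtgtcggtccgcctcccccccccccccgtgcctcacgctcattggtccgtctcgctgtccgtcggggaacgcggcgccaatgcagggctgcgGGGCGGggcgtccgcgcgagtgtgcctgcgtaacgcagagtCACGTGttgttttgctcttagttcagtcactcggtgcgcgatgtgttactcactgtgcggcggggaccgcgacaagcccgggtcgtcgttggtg
The G+C share was 71.7% for Igfbp3, 71.3% for Irs1 and 72% for Irs2, and 56.3% for Igfbp5, against a median of 52.7% over all 32851 RefSeq windows. The motifs were chosen after the sequences were seen and were searched on both strands. CACGTG, the E-box letters, lies in the Irs1 and Irs2 windows and an Igfbp2 window, 3 of the 10, and in 7.15% of all windows. GGGCGG, the GC-box letters, lies in 4 of the 10 windows, those of Irs1, Irs2 and Igf1r and an Igfbp2 window, and in 35.7% of all windows. Igfbp2 and Igf1r did not fall in the day 10 RNA. TATANA lies in the Igfbp3, Igfbp4 and Igfbp6 windows, 3 of the 10, and in 24.7% of all. Its 2 overlapping matches in the Igfbp3 window are the run printed as TCTATATA. The forkhead letters GTAAACA lie in 0 of the 10 windows and in 3.65% of all. A match describes the letters and is not evidence of a bound site.

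PRO-seq maps RNA held by engaged polymerases, so it reads transcription where poly(A) RNA reads the stored message. At day 7, in the same RAD21 clones and after the same 8 h, nascent signal was lower in both clones for Igfbp3, Irs1, Irs2 and Igfbp2, of which Igfbp2 did not pass the threshold in the day 10 RNA. Of the 8 tested genes 4 fell and 0 rose, in a table where 4.66% of 16496 tested genes fell and 5.9% rose. The assay and the day differ between the sets, and their parts cannot be told apart.

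Irs2 was at 205 CPM in C4 and 236 CPM in G9 after RAD21 loss, against 373 CPM in C4 and 509 CPM in G9 with DMSO. Both treated libraries lay below both DMSO libraries, with means of 220 ± 22.2 CPM after dTAG-13 and 441 ± 96.4 CPM in DMSO (SD, n = 2 each) and a log2 change of -0.99 (SE 0.07). Irs1 was at 43.4 CPM in C4 and 46.3 CPM in G9 after RAD21 loss, against 63.1 CPM in C4 and 88.2 CPM in G9 with DMSO, also without overlap, a log2 change of -0.73 (SE 0.10).

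Igfbp2 was at 219 CPM in C4 and 171 CPM in G9 after RAD21 loss, against 293 CPM in C4 and 304 CPM in G9 with DMSO. The groups did not overlap, and the log2 change was -0.62 (SE 0.08), larger in G9 (-0.83) than in C4 (-0.42). Igfbp3 was at 43.5 CPM in C4 and 38.6 CPM in G9 after RAD21 loss, against 64.3 CPM in C4 and 192 CPM in G9 with DMSO. The DMSO library of G9 stood well above the other 3, and the log2 change of -1.41 (SE 0.18) was -0.64 without it. DESeq2 did not call Igfbp3 in the nascent data (adjusted p = 0.505), while it called Igfbp2, Irs1 and Irs2.

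Igfbp5 nascent signal was low, at 6.16 CPM in C4 and 3.85 CPM in G9 after RAD21 loss, against 5.03 CPM in C4 and 3.05 CPM in G9 with DMSO. The groups overlapped, both pairs were above 0 (0.29 in C4 and 0.33 in G9), and the log2 change was 0.31 (SE 0.24). Igfbp4 was at 12.8 CPM in C4 and 6.39 CPM in G9 after RAD21 loss, against 11.4 CPM in C4 and 7.28 CPM in G9 with DMSO, and was higher in C4 at both treatments. Igf1r was at 401 CPM in C4 and 539 CPM in G9 after RAD21 loss, against 409 CPM in C4 and 516 CPM in G9 with DMSO, a log2 change of 0.02 (SE 0.06). Igfbp6 stayed under 1 CPM in all 4 libraries, and Igfbp1, with counts of 1 in C4 and 3 in G9 after RAD21 loss and of 0 in C4 and 2 in G9 with DMSO, was at or under the limit and was not tested. All 4 nascent calls were lost without the clone term and whenever 1 library was left out, fits with no clone term. Pluripotency markers summed to 176 to 328 CPM after RAD21 loss and 278 to 443 CPM in DMSO in these libraries, 5 of 6 falling, and smooth muscle markers to 150 to 253 CPM after RAD21 loss and 144 to 264 CPM in DMSO, and their part was not tested.

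**Figure D3:**
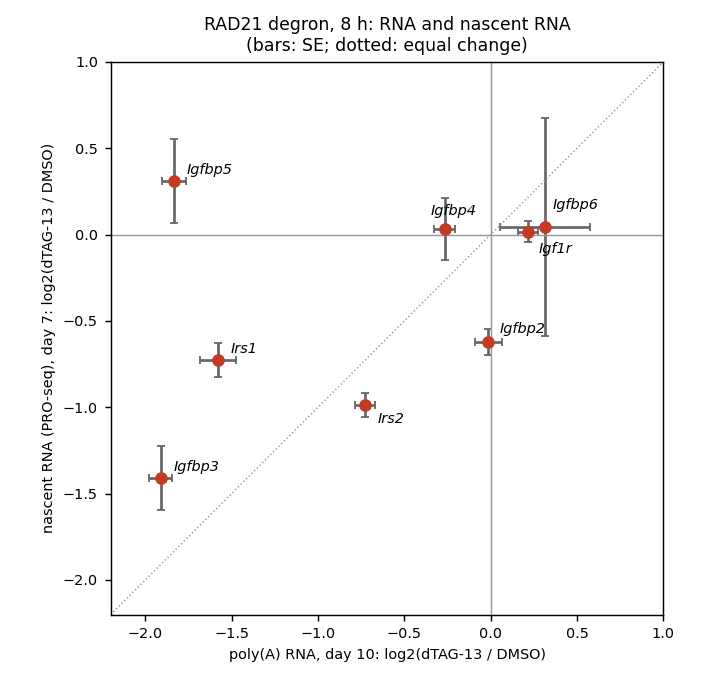
Log2 change of each gene in day 10 RNA against that in day 7 PRO-seq, both dTAG-13 over DMSO in the RAD21 line, with SE bars. Igfbp3, Irs1 and Irs2 lie below 0 on both axes, Igfbp5 is at -1.83 in RNA and 0.31 in PRO-seq, and Igfbp2 is at -0.01 in RNA and -0.62 in PRO-seq.

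Genes beside these loci were compared, taking up to 3 genes on each side of each member that have a row in the tables, by RefSeq gene order. In the day 10 RNA, 23 such neighbours were tested. Of these, 3 rose (Tns2 near Igfbp6, Ttc23 near Igf1r and Col4a2 near Irs2) and 2 fell (Adcy1 and Rpl37a). Over all 14470 tested genes of that set 9.83% rose and 8.89% fell. The neighbours' log2 changes spanned -0.65 to 0.62 with a median of -0.02. Near Igfbp3, Hus1, a DNA damage checkpoint gene, was at -0.05, Tns3, a focal adhesion gene, at -0.12, and Adcy1, an adenylyl cyclase gene, fell by 0.44. Around the Igfbp2 and Igfbp5 pair, the helicase gene Smarcal1 was at 0.02 and the ribosomal protein gene Rpl37a fell by 0.65, although Rpl37a has processed copies to which reads may be assigned. Near Irs1 the rhomboid gene Rhbdd1 was at -0.21, and near Irs2 the collagen genes Col4a1 and Col4a2 were at 0.15 and 0.19, of which Col4a2 rose. None of these neighbours was as far below 0 as Igfbp3, Igfbp5, Irs1 or Irs2, but those genes were picked with these changes known. Nothing is read from that contrast. In the nascent data 33 neighbours were tested, Synm near Igf1r rose by 0.63 and 0 fell. Over all 16496 tested genes of that set 5.9% rose and 4.66% fell. The neighbours' log2 changes spanned -0.93 (Sun3 near Igfbp3, SE 0.61) to 0.79 (Ankar near Igfbp2 and Igfbp5, SE 0.48), with a median of -0.03. Sun3 and Ankar did not pass the threshold.

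**Figure D4:**
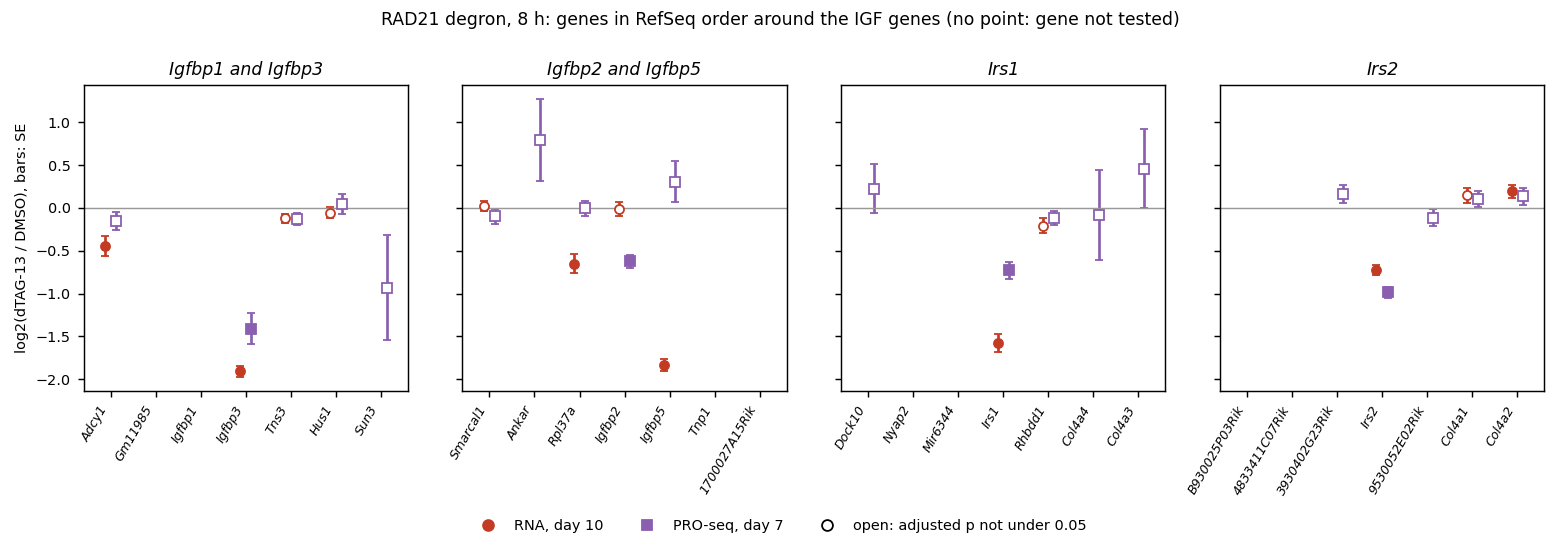
Log2 changes (dTAG-13 over DMSO) in the RAD21 sets around Igfbp3, around Igfbp2 and Igfbp5, and around Irs1 and Irs2, in RefSeq gene order. The neighbours drawn lie between -0.65 (Rpl37a) and 0.19 (Col4a2) in RNA. Igfbp3, Igfbp5 and Irs1, picked with these changes known, are at -1.91, -1.83 and -1.58.

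In the WAPL line treated on days 4 to 7, Igfbp6 was the one member that rose, and Igfbp3, low after RAD21 loss, was higher on average than in DMSO without passing the threshold. Of 8 tested genes 1 rose and 0 fell, in a table where 15.2% of 14544 tested genes were called, 9.46% higher and 5.73% lower.

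Igfbp6 was at 3.02 and 2.79 CPM in H7 and 1.23 CPM in H2 after WAPL loss, against 0.862 and 1.18 CPM in H7 and 0.623 CPM in H2 with DMSO. Every treated library lay above every DMSO library, and the log2 change was 1.44 (SE 0.27, adjusted p = 0.0119 by edgeR), with pair values of 1.80, 1.22 and 0.89. The counts behind it were few, 39, 80 and 16 after WAPL loss and 31, 25 and 5 with DMSO. Without the clone term the call was lost (adjusted p = 0.0777), and it was lost without DMSO replicate 1 (adjusted p = 0.0681), DMSO replicate 3 (0.0579) or dTAG-13 replicate 3 (0.0577).

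Igfbp3 was at 446 and 429 CPM in H7 and 461 CPM in H2 after WAPL loss, against 317 and 297 CPM in H7 and 435 CPM in H2 with DMSO. The H2 DMSO library stood among the treated ones, and the means were 446 ± 15.9 CPM after dTAG-13 and 350 ± 74.3 CPM in DMSO (SD, n = 3 each). The log2 change was 0.37 (SE 0.11, adjusted p = 0.0639 by edgeR). With the replicate number as a block, in a fit that called 27.5% of 14544 genes, its adjusted p was 0.0326, and DESeq2 also called it (adjusted p = 0.0424).

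The other binding proteins and the signalling genes stayed near DMSO. Igfbp2 was at 694 and 539 CPM in H7 and 632 CPM in H2 after WAPL loss, against 522 and 604 CPM in H7 and 756 CPM in H2 with DMSO, a log2 change of 0.00 (SE 0.14). Igfbp5 was at 11.4 and 15.9 CPM in H7 and 11.6 CPM in H2 after WAPL loss, against 10.2 and 9.33 CPM in H7 and 11.7 CPM in H2 with DMSO, a log2 change of 0.34 (SE 0.18) that rests mostly on the second H7 pair. Igfbp4 averaged 21.98 ± 4.79 CPM after WAPL loss and 22.9 ± 2.67 CPM in DMSO (SD, n = 3 each).

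Igf1r averaged 153 ± 22.9 CPM after WAPL loss and 156 ± 14.7 CPM in DMSO, Irs1 averaged 28.1 ± 9.05 CPM after WAPL loss and 32.9 ± 6.19 CPM in DMSO, and Irs2 averaged 235 ± 36.9 CPM after WAPL loss and 225 ± 3.49 CPM in DMSO (SD, n = 3 each). For each of these 3 genes the groups overlapped. Igfbp1 had counts of 2, 0 and 0 after WAPL loss and 3, 1 and 0 with DMSO, at or under the limit, and was not tested. Leaving out dTAG-13 replicate 2 brought Irs1 past the threshold at -0.56 (adjusted p = 0.0285 by edgeR). Beside these values, smooth muscle markers summed to 1004 to 1378 CPM after WAPL loss and 334 to 664 CPM in DMSO, with 4 of 4 rising, and fibroblast and feeder markers to 90.8 to 112 CPM after WAPL loss and 65.3 to 74.2 CPM in DMSO, with 4 of the 7 tested rising and 1 falling. Trophoblast markers summed to 43.8 to 66.7 CPM after WAPL loss and 14.5 to 26.3 CPM in DMSO, with 2 of the 3 tested rising, and neural markers to 188 to 249.9 CPM after WAPL loss and 310 to 382 CPM in DMSO. The part of these markers in the Igfbp6 change was not tested.

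In the WAPL days 7 to 10 set Igfbp3 and Igfbp6 were higher than DMSO in both pairs, but no gene was called. There, 0% of 14110 tested genes passed edgeR's adjusted p, with 926 at an unadjusted p under 0.05, 40 called by DESeq2 and 0 by limma-voom. Igfbp3 was at 602 and 492 CPM after WAPL loss, against 356 and 348 CPM with DMSO. The groups did not overlap, and the log2 change was 0.64 (SE 0.18, adjusted p = 0.689 by edgeR). Igfbp6 was at 4.12 and 4.71 CPM after WAPL loss, against 2.60 and 3.34 CPM with DMSO, also without overlap, a log2 change of 0.58 (SE 0.27, adjusted p = 0.802). With the replicate number as a block 36.4% of 14110 genes were called, among them Igfbp3 (0.63) and Igfbp6 (0.56). Smooth muscle markers summed to 1355 to 1578 CPM after WAPL loss and 874 to 1026 CPM in DMSO, and trophoblast markers to 147 to 154 CPM after WAPL loss and 86.2 to 111 CPM in DMSO. Lower sums after WAPL loss were those of endoderm (53.0 to 60.8 CPM, against 73.9 to 98.2 CPM in DMSO) and neural markers (198 to 204 CPM, against 267 to 293 CPM). Endothelial markers were lower too (46.0 to 49.8 CPM, against 53.4 to 74.6 CPM). The sums of pluripotency and of fibroblast and feeder markers overlapped. The part of these markers was not tested.

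For the signalling genes at day 10 the replicate numbers differed more than the treatments. Irs2 was at 194 and 318 CPM after WAPL loss, against 152 and 317 CPM with DMSO, in replicates 1 and 2. Igf1r was at 180 and 262 CPM after WAPL loss, against 163 and 280 CPM with DMSO, and Irs1 at 28.4 and 50.1 CPM after WAPL loss, against 24.2 and 52.5 CPM with DMSO. For all 3 genes replicate 2 was the higher in both groups. Igfbp5 showed the same pattern, at 28.1 and 60.4 CPM after WAPL loss and 29.7 and 50.9 CPM with DMSO. Igfbp4 was at 93.8 and 82.3 CPM after WAPL loss, against 84.5 and 97.6 CPM with DMSO, and Igfbp2 at 753 and 574 CPM after WAPL loss, against 776 and 676 CPM with DMSO, both with overlap.

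Whether the response differed between windows was tested in 1 fit of the 10 WAPL libraries. In it 0% of 14326 genes passed the adjusted threshold in edgeR, with 423 at an unadjusted p under 0.05 and 5 called with the replicate block. The smallest p among the members was that of Igfbp6, whose change was lower by 0.84 on the log2 scale in days 7 to 10 than in days 4 to 7 (SE 0.35, unadjusted p = 0.0423, with an adjusted p near 1). The difference for Igfbp3 was 0.28 (SE 0.19).

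Without degradation, 3 binding protein genes were higher at day 10 than at day 7 in the WAPL line. Igfbp4 was at 84.5 and 97.6 CPM in the day 10 DMSO libraries, against 24.1, 19.8 and 24.7 CPM in those of day 7, a log2 change of 2.05 (SE 0.17, adjusted p = 0.00105 by edgeR). Igfbp5 was at 29.7 and 50.9 CPM at day 10, against 10.2, 9.33 and 11.7 CPM at day 7, a log2 change of 1.92 (SE 0.37, adjusted p = 0.0236). Igfbp6 was at 2.60 and 3.34 CPM at day 10, against 0.862, 1.18 and 0.623 CPM at day 7, a log2 change of 1.47 (SE 0.26, adjusted p = 0.0182). In each of the 3 genes the groups were fully apart.

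Of the 8 tested genes 3 rose and 0 fell between these days, in a fit where 4.47% of 14326 genes were higher, and Igf1r (0.47), Igfbp2 (0.26), Irs1 (0.26), Igfbp3 (0.08) and Irs2 (0.05) did not pass. Igfbp4 stayed called when any 1 of the 10 libraries was left out, Igfbp5 was lost in 5 of those fits and in clone H7 alone (adjusted p = 0.0578), and Igfbp6 in 3. Day and table cannot be told apart here, and clone H2 is in the day 7 set only. In the same DMSO libraries, trophoblast markers summed to 86.2 to 111 CPM at day 10 and 14.5 to 26.3 CPM at day 7, and endoderm markers to 73.9 to 98.2 CPM at day 10 and 13.1 to 38.4 CPM at day 7. Fibroblast and feeder markers summed to 144 to 203 CPM at day 10 and 65.3 to 74.2 CPM at day 7, and smooth muscle markers to 874 to 1026 CPM at day 10 and 334 to 664 CPM at day 7. Endothelial markers summed to 53.4 to 74.6 CPM at day 10 and 30.3 to 52.9 CPM at day 7. Pluripotency markers were lower at day 10, at 1333 to 1840 CPM against 1864 to 2098 CPM at day 7. Neural markers were lower as well, at 267 to 293 CPM against 310 to 382 CPM. Prl3d1, Afp, Ttr, Apoa1, Lum, Cdh5 and Neurog2 of these lists have no row in the later table, and the part of the markers in the 3 changes was not tested. Of these 3 genes, Igfbp5 stood in DMSO at 69.0 ± 4.01 CPM in the RAD21 line at day 10 (SD, n = 2), above both WAPL line day 10 libraries, and Igfbp4 at 203 ± 17.6 CPM, also above both. Igfbp6 stood there at 1.89 ± 0.356 CPM (SD, n = 2), below both. The lines sit in separate tables, so these levels were not tested against each other.

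The wider IGF pathway was described with 49 other genes in 7 lists, written with earlier results of these tables known. In the RAD21 day 10 RNA 44 were tested, in a set where 9.83% of 14470 tested genes rose and 8.89% fell. Of the 44, 4 rose and 11 fell, with a median log2 change of 0.04 against 0.01 over all tested genes. Nothing is read from such counts, as the lists were written with earlier results known. Irs4, a further receptor substrate, was at 9.43 ± 6.58 CPM after RAD21 loss and 20.9 ± 0.821 CPM in DMSO, and Pappa, the protease that cleaves IGFBP4, at 2.02 ± 1.06 CPM after RAD21 loss and 4.50 ± 0.637 CPM in DMSO (SD, n = 2 each), log2 changes of -1.12 and -1.11. Htra1, a secreted serine protease with an IGFBP domain, was at 7.27 ± 3.10 CPM after RAD21 loss and 12.997 ± 1.73 CPM in DMSO (SD, n = 2 each), and the forkhead factor Foxo1, an AKT target, was at 41.6 ± 4.60 CPM after RAD21 loss and 57.4 ± 3.06 CPM in DMSO. The growth factor gene Igf2 was at 80.1 CPM in C4 and 176 CPM in G9 after RAD21 loss, against 101 CPM in C4 and 237 CPM in G9 with DMSO. Igf2 was lower after dTAG-13 in both clones, with a log2 change of -0.38, and the clones differed more than the treatments. Without the dTAG-13 library of C4 the change was 0.05, and without the DMSO library of G9 it was 0.34. Those fits have no clone term, so the difference between clones enters them. Insr (-0.23), Grb10 (-0.63), Stc2 (-0.48) and Irs3 (-1.23) fell as well, and so did Foxo4 (-0.30), while Pik3cb (0.43), Igf2bp1 (0.24) and Igf2bp3 (0.21) rose. DESeq2 did not call Igf2bp1 (adjusted p = 0.117) or Igf2bp3 (0.289). DESeq2 also called Htra1, Foxo1, Igf2 and Pik3cb, but not Irs4 (adjusted p = 0.4998), Pappa (0.103), Insr (0.663), Grb10 (0.284), Stc2 (0.581), Irs3 (0.652) or Foxo4 (0.0882). None of the pathway calls of the RAD21 sets held without the clone term.

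In the nascent data 43 of the 49 were tested, in a set where 5.9% of 16496 tested genes rose and 4.66% fell. Of the 43, 3 rose and 4 fell, with a median of -0.01 against 0.00 over all tested genes. Among those called, Foxo3 (0.35) and Pik3r1 (0.34) rose, and Insr (-0.26), Sh2b1 (-0.43) and Foxo1 (-0.28) fell. DESeq2 called both of those that rose but not Insr (adjusted p = 0.176), Sh2b1 (0.155) or Foxo1 (0.181). In the WAPL days 4 to 7 set 43 were tested, where 9.46% of 14544 tested genes rose and 5.73% fell. Of the 43, 6 rose and 3 fell, with a median of -0.01 against -0.01 over all tested genes. Igf2 was at 96.4 and 129 CPM in H7 and 73.5 CPM in H2 after WAPL loss, against 45.0 and 50.6 CPM in H7 and 22.1 CPM in H2 with DMSO. All treated libraries lay above all DMSO libraries, with a log2 change of 1.39 (SE 0.15). Grb10, an adaptor that binds IGF1R and limits its signalling, averaged 48.7 ± 3.04 CPM after WAPL loss and 25.4 ± 3.82 CPM in DMSO (SD, n = 3 each). Pik3r3 (1.09), Pik3cb (0.70), Gab1 (0.58) and Pik3r1 (0.57) rose, and Stc1 (-1.23), Stc2 (-1.05), whose proteins inhibit PAPP-A, and Irs4 (-1.20) fell. For Stc1 the groups overlapped. Without the clone term edgeR lost Stc1 (adjusted p = 0.302), Stc2 (0.0823), Pik3r1 (0.0765) and Irs4 (0.0633), and in clone H7 alone it also lost Gab1 (0.149) and Pik3cb (0.0877), while Igf2, Grb10 and Pik3r3 stayed called in both. In the WAPL days 7 to 10 set 43 were tested and 0 passed in either direction, where 0% of all 14110 tested genes passed.

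**Figure D5:**
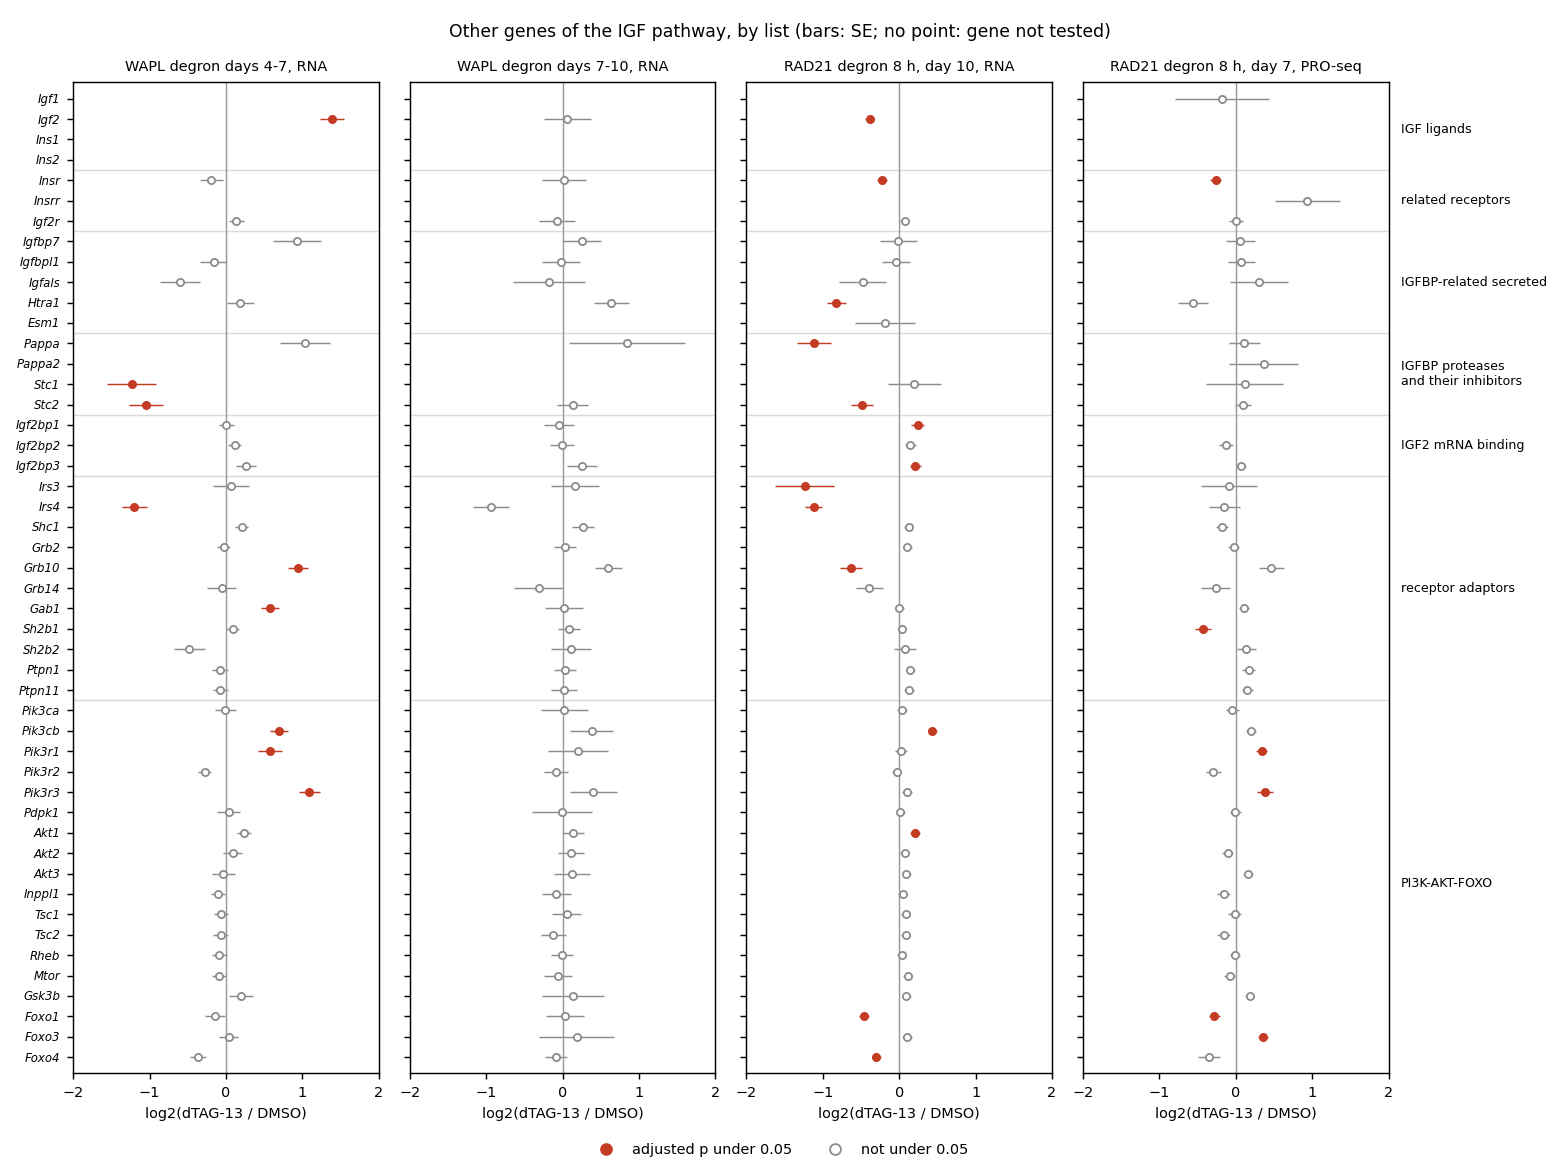
Log2 changes (dTAG-13 over DMSO) of other IGF pathway genes in the 4 data sets, 1 row per gene and grouped by list, with SE bars and filled points for genes at an adjusted p under 0.05. Igf2 is at 1.39 in the WAPL days 4 to 7 set and at -0.38 in the RAD21 day 10 RNA set.

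The likeness of each gene's change to that of other genes was described by Pearson's r of the log2 ratio of dTAG-13 to DMSO over the 7 RNA pairs, searched over 11764 genes. The genes most like Igfbp3 were Adamts15 and Slc18a3 (r = 0.99 each), those most like Igfbp5 were Tmem106b and S1pr3, those most like Irs1 were Sema3c and Nfib (r = 0.99 each), and those most like Irs2 were Bmp2k (r = 0.99) and Ankrd44 (r = 0.98). Between members, r was 0.95 for Igfbp3 with Igfbp5 and with Irs1, 0.96 for Irs1 with Irs2, and 0.92 for Igfbp3 with Irs2. The 2 RAD21 pairs lie apart from the 5 WAPL pairs and pairs of a set share a line, so r is given without a test. For Igfbp2 the most like were Timm23 and Mt1, for Igfbp4 Cdipt and Cul7, for Igfbp6 Snx25 and Ank2, and for Igf1r 2700049A03Rik and Nemf.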

How the data were processed

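Gene counts of 14 poly(A) RNA-seq and 4 PRO-seq libraries were analysed. The authors deposited the 3 RNA tables as raw read counts per gene. The PRO-seq table, also deposited by the authors, holds expected counts in steps of 0.5, which were rounded to whole numbers for the test. Per the submitters' processing notes, TopHat2, Novoalign, Bowtie2, HOMER, cutadapt, DESeq and DESeq2 were among the tools and mm9, hg19 and dm6 the builds, without stated roles or versions. How reads were counted, and with which strand setting, is not given in the sources used here. Of per-sample columns, 0 were left without a sample.

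Whole tables were tested in R 4.3.3 with the quasi-likelihood F-test of edgeR 4.0.16 after TMM scaling and filterByExpr (minimum count 10), at a Benjamini-Hochberg adjusted p under 0.05, with the clone as a term except in the WAPL days 7 to 10 set. Residual degrees of freedom were 3 and 2 for the WAPL sets and 1 for each RAD21 set. Windows and DMSO days were compared in 1 fit of the 10 WAPL libraries. Pair log2 ratios used a prior count of 0.5. RefSeq tables of GRCm38.p6, another build than that of the files, gave the promoter windows and the gene order. Figures were drawn with matplotlib 3.10.9.

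The members and lists were chosen with earlier results of these data known. The rule for named genes takes all 9 members, Rad21 and Wapl, up to 3 neighbours on each side, up to 4 genes of each pathway list by smallest p, and the 2 genes most like each member at a mean log2 CPM of at least 2. Replicates differed beyond sampling noise (chi-square per gene of 12.9 to 55.3), so none were merged. In the WAPL days 4 to 7 set, same-numbered libraries deviated together (r = 0.52, 0.54 and 0.63). The clone was not removed from these deviations, so r cannot show that the H7 numbers pair samples. Pair values and the replicate block use the numbers all the same. Clone H2, which has no number in its label, is the last pair. In the RAD21 sets the clone pairs the libraries (r = 0.68 for RNA and 0.72 for PRO-seq) and is a term of the fit. Alternatives were other scalings and filters, DESeq2 1.42.0, limma-voom (limma 3.58.1), other designs and leaving out each library. The values of 1 pathway gene that the rule takes are not reported here.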

Additional observations from a re-analysis of the deposited data

Results flagged for a closer look

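The log2 change of Igfbp3 went in opposite directions in the 2 lines. After RAD21 loss both pairs of the day 10 RNA were lower than DMSO, and after WAPL loss every pair was higher, so the RAD21 change minus the WAPL change was -2.28 for days 4 to 7 and -2.55 for days 7 to 10. The days 4 to 7 pair values were 0.49 and 0.53 in H7 but 0.09 in H2. Neither WAPL change of Igfbp3 passed the threshold in the main fit. For Irs2 both RAD21 pairs were lower (-0.73 each) while both WAPL pairs of days 7 to 10 were not below DMSO (0.35 and 0.00), a difference of -0.86. Lines, treatment times and tables differ between these sets, and the differences were not tested.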

How the results depend on the processing

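No called change of a member turned sign under the alternatives run, while uncalled ones did, such as Igfbp5 in PRO-seq (-0.09 without dTAG-13 replicate 1). Of 574 values 511 kept their side of the threshold, 55 lost it and 8 gained it. The number of called genes moved in 58 of 144 cases. In the WAPL days 4 to 7 set the main fit called 2209 genes, against 3993 with the replicate block, 994 with no clone term, 360 in clone H7 alone and 341 to 4433 when 1 library was left out. The highest of these was without dTAG-13 replicate 1 (4433), the lowest without DMSO replicate 3 (341). The 1 member called there became 2 with library totals, no filter, DESeq2 or the replicate block, 0 with a mean count of at least 50, no clone term or clone H7 alone, and 0 to 2 when 1 library was left out. In the days 7 to 10 set the 0 calls became 40 in DESeq2, 5141 with the replicate block (2 members) and 27 to 143 when 1 library was left out. The same-numbered H7 libraries of both WAPL sets share a number only, and the main fits do not use it. In days 7 to 10 the deviations of such libraries correlated with r = 0.79. In the RAD21 RNA set 2708 calls became 475 in DESeq2, 1 with no clone term (0 members) and 16 to 94 with 1 library left out (3 to 4 members, from 6). In the PRO-seq set 1743 calls became 496 in DESeq2, 0 with no clone term (0 members, from 4) and 0 to 0 with 1 library left out (0 to 0 members). The difference between windows gave 5 calls with the replicate block, and 0 to 0 with 1 library left out. The DMSO days gave 860 calls, 358 in clone H7 alone and 168 to 845 with 1 library left out (1 to 3 members, from 3). Fits without 1 library of a RAD21 set also have no clone term and fewer samples, the cause in other cases was not tested, and the replicate block changed no other member's call. Low counts limit Igfbp6, and Igfbp1 was below the depth at which a change could be detected.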
